A study of Canis lupus familiaris with 30 samples.

Results

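The genes described here are DLA-DQA1, DLA-DQB1, HLA-DRB1, DLA-DMA, DLA-DMB and CD80, genes of antigen presentation to T cells and of its costimulation, measured in peripheral blood mononuclear cells (PBMC) of adult dogs. They are 6 of the 1353 genes with a symbol on the array, and were read by 14 of its 43603 non-control probes. The 6 genes were chosen with earlier results of these data known. All probes whose RefSeq transcript belongs to 1 of these genes were then taken, a step that used no measured values. They were 2 for DLA-DQA1, 4 for DLA-DQB1, 3 for HLA-DRB1, 1 for DLA-DMA, 2 for DLA-DMB and 2 for CD80. The dogs ate nothing but a raw red meat diet rich in protein and fat (meat, 7 dogs) or a premium kibble that contains carbohydrate (kibble, 8 dogs), with samples from weeks 0 (the start), 3, 6 and 9. The labels give no breed, age or sex for these groups, nor which dog lies on which array. RNA of a pair of groups was hybridised together on each of 30 2-colour Agilent arrays, and every group was read in 7 channels (weeks 0 and 3) or 8 channels (weeks 6 and 9). Of the arrays, 14 set meat against kibble within a week (diet arrays) and 16 compared a later with an earlier week of the same diet (time arrays: weeks 9 and 0, weeks 6 and 3).

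MHC class II molecules sit on the surface of cells such as B cells, monocytes and dendritic cells. They show peptides taken from outside the cell to CD4+ helper T cells. Each is a pair of an alpha and a beta chain: DLA-DQA1 codes for the alpha and DLA-DQB1 for the beta chain of DQ, and HLA-DRB1, the symbol that RefSeq gives the dog gene, for the beta chain of DR. DLA-DMA and DLA-DMB form DM, which loads peptides onto the others inside the cell. CD80 is not an MHC gene; it is a costimulatory ligand on antigen-presenting cells that binds CD28 and CTLA4 on T cells. DQ and DR chains differ in sequence between dogs, since these genes are among the most polymorphic of vertebrates, so a probe can bind the transcript of 1 allele better than that of another. In the UU_Cfam_GSD_1.0 annotation the 5 class II genes lie near each other on 1 chromosome in the order HLA-DRB1, DLA-DQA1, DLA-DQB1, DLA-DMB and DLA-DMA, and CD80 lies on another chromosome.

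Probes are numbered within a gene from the brightest. DLA-DQA1 probes 1 and 2 are A_11_P052656 and A_11_P0000020178. DLA-DQB1 probes 1 to 4 are A_11_P052641, A_11_P054896, A_11_P052649 and A_11_P0000020226. HLA-DRB1 probes 1 to 3 are A_11_P177303, A_11_P055246 and A_11_P0000020227. DLA-DMA has A_11_P0000026327, DLA-DMB has A_11_P052666 and A_11_P194308, and CD80 has A_11_P058586 and A_11_P0000019866.

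Probes had to exceed background well in 7 or more of the 60 channels to be kept, and all 14 passed, among 31674 kept probes. The signal was well above background in 60 of 60 channels for 13 of them and in 43 for DLA-DQB1 probe 4. No member spot was faulty or saturated. The array kibble 0/kibble 9 replicate 1 (the sample before the stroke is in Cy3) had the fewest probes well above background, 20072 and 19401 in its channels, and the array meat 9/meat 0 replicate 1 the most, 42272 and 42980. Differences below are on the log2 scale, from limma over all 30 arrays with a dye term, ± the standard error of the fit. Adjusted p-values are Benjamini-Hochberg over all kept probes, and a call is an adjusted p under 0.05. Since dogs are not tied to arrays, the fit holds no term for the dog, and p-values measure the spread between arrays. Each diet had fewer dogs than channels, so dogs recur between arrays. The p-values can therefore be too small, above all for means over several weeks. In PBMC fewer cells of a type and less RNA per cell cannot be told apart.

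Within each gene the 8 groups lay close together. By the brightest probe, DLA-DQA1 averaged 11.07 ± 0.28, 11.13 ± 0.37, 11.16 ± 0.35 and 11.54 ± 0.28 log2 intensity in meat channels of weeks 0, 3, 6 and 9, and 11.30 ± 0.16, 11.49 ± 0.16, 11.40 ± 0.15 and 11.63 ± 0.19 in kibble channels (SD over 7, 7, 8 and 8 channels). Ranked, the group means ran from kibble 9 down to meat 0, with kibble at every week above meat at the same week. No neighbours in that order lay further apart than the smallest SD of a group, so the order of neighbours is not resolved. The lowest and highest group means were 15.80 in meat 0 and 16.05 in meat 9 for DLA-DQB1 probe 1, and 17.19 in meat 0 and 17.54 in kibble 9 for HLA-DRB1 probe 1. For DLA-DMA they were 12.37 in meat 0 and 12.92 in kibble 9, for DLA-DMB probe 1 11.80 in meat 3 and 12.28 in kibble 0, and for CD80 probe 1 9.08 in meat 6 and 9.60 in kibble 0. The lowest of the 8 means was that of a meat group for each of the 6 brightest probes, and steps between neighbours were at most 0.17 among these genes. Levels of different probes are not comparable with each other.

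DLA-DQB1 probe 4 behaved unlike the other 13 probes. Its 60 channel values fell into 3 bands, separated after the values were seen by the widest gaps (2.42 and 1.25 on the log2 scale): a high band from 12.82 to 13.79, a middle band from 8.94 to 10.40 and a low band from 6.13 to 7.69. The high band held 3 of 30 meat channels and 24 of 30 kibble channels. The middle band held 9 meat channels and no kibble channel, and the low band 18 meat and 6 kibble channels. The signal was well above background in all 27 channels of the high band, all 9 of the middle band and 7 of the 24 of the low band. Both diets therefore had channels with and without a high signal, and they overlapped.

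The band of a channel went with that of the other channel on its array. All 24 channels of the low band had a partner in the low band, and all 9 channels of the middle band had a partner in the high band, always a kibble one. In the raw signals the middle and low bands overlapped: the spot's median minus the local background was 388 to 1872 in the middle band (median 541.5), 6 to 600.5 in the low band (median 44.5) and 4415.5 to 22867 in the high band (median 11299). In the middle band that raw signal was 2.85% to 26.1% of the partner's, with a median of 3.40%. Among 37403 readings of the other kept probes with a channel in the same high range, the partner was as low as the middle band's upper edge in 38 and never as low as the low band. What sets the middle band apart from the low band was not tested, so the bands are read below as high or not high.

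On the time arrays both channels lay in the same band in 16 of 16, and the largest log2 ratio was 0.71 in size. Every meat channel of a time array was in the low band (16 of 16), and kibble channels of time arrays were in the high band in 12 of 16. On the diet arrays the channels shared a band in 5 of 14, meat channels were high in 3 of 14, and kibble channels were high in 12 of 14. Meat over kibble was -2.97, -4.12 and -3.98 on the 3 arrays of week 0, -0.03, 0.32 and -3.99 on those of week 3, -3.60, -3.46, -3.77 and 0.33 on the 4 of week 6, and -3.74, 0.74, -4.00 and 0.11 on the 4 of week 9. The ratios were thus either near 0 or beyond -2, with none in between.

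**Figure D1:**
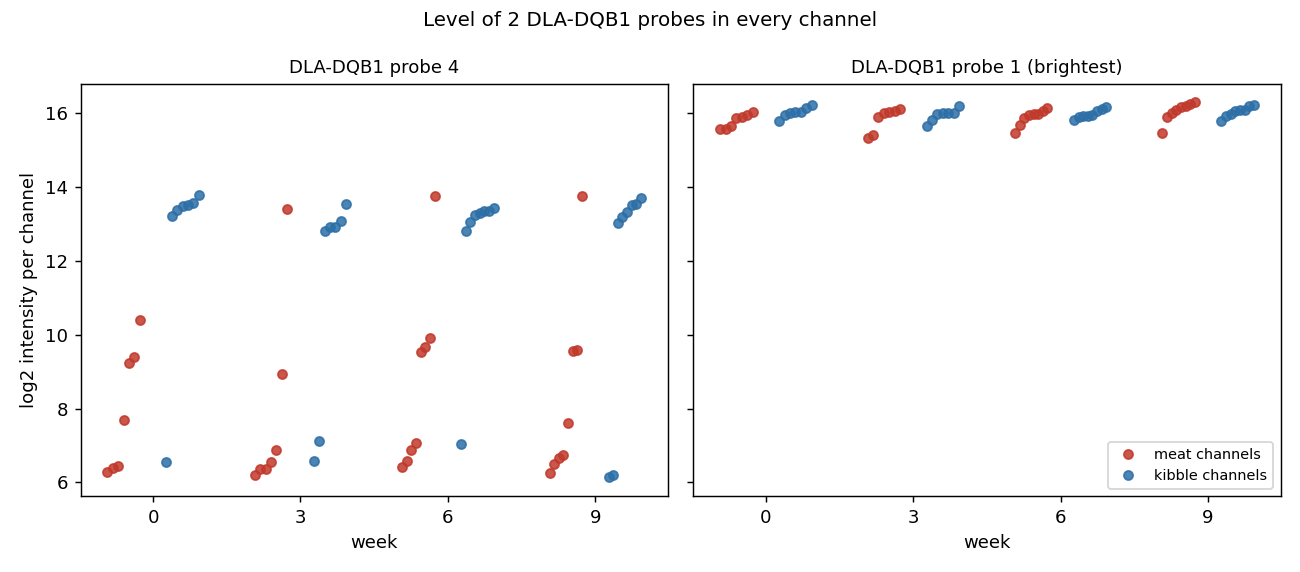
Log2 intensity of DLA-DQB1 probe 4 (left) and probe 1 (right) in every channel (y axis), by week (x axis), meat channels in red left of kibble channels in blue, each point 1 channel. Probe 4 splits into a high band of 3 meat and 24 kibble channels and lower values, while the channels of probe 1 lie between 15.32 and 16.30 with no such split.

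In the fit, DLA-DQB1 probe 4 was lower on meat by -2.02 ± 0.40 over weeks 3, 6 and 9 (adjusted p = 0.00121), and by -2.32 ± 0.37 over all 4 weeks (adjusted p = 0.000139). It was already -3.21 ± 0.66 at week 0, the start of feeding (adjusted p = 0.0315), where 0.313% of all kept probes were called. At weeks 3, 6 and 9 it was -1.78 ± 0.66, -2.21 ± 0.61 and -2.07 ± 0.61 (adjusted p = 0.105, 0.0303 and 0.135). These means lie between the 2 sets of arrays and match no array's own ratio, and most low channels were not well above background, so no fold is given. Between weeks it did not pass the test: week 9 minus week 0 was 0.56 ± 0.61 on meat and -0.58 ± 0.61 on kibble (adjusted p = 0.660 and 0.598). Whether the bands follow individual dogs or their DLA-DQB1 alleles was not tested, because the labels do not tie dogs to arrays. A difference between the diets cannot be told apart from a difference between the dogs assigned to them. Dogs recur between arrays with no term for the dog, so the p-values of the means over weeks can be too small.

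Compared with all kept probes, probe 4 ranked 2 of 31674 by the size of its ratios on the diet arrays, with a root mean square log2 ratio of 3.02, against 0.264 on the time arrays. Its diet to time quotient, 11.4, ranked 5 among all kept probes and 1 among the 1703 that carry a gene symbol. The next named genes were CD1A6, which presents lipids, at 6.11, and CAMP, a neutrophil antimicrobial peptide, at 5.17. DLA-79, a class I relative, ranked 6 with 4.29. The quotient of the other 13 member probes ran from 1.28 (CD80 probe 2, DLA-DQA1 probe 1) to 3.24 (DLA-DQB1 probe 2). All 14 thus had larger ratios between diets than between weeks, but this was not particular to the members. By the quotient, CD80 probe 2 and DLA-DQA1 probe 1 ranked 8179 and 8150 of 31674 kept probes, and DLA-DQB1 probe 2 ranked 280. The share of all kept probes with a quotient above 1 was not counted. The medians over all kept probes were nearly equal, 0.189 on diet arrays and 0.187 on time arrays.

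**Figure D2:**
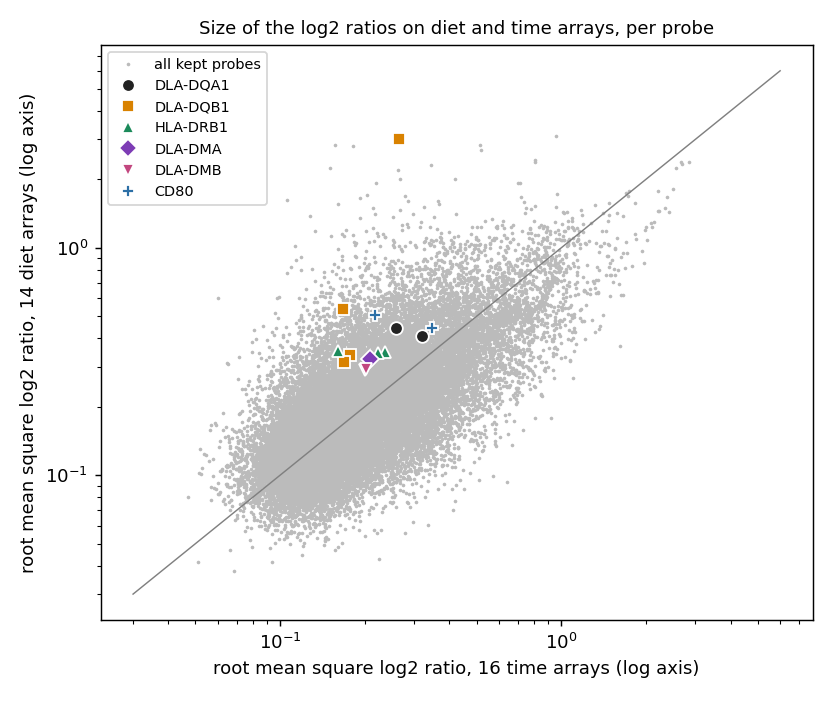
Root mean square log2 ratio over the 14 diet arrays (y axis, log scale) against that over the 16 time arrays (x axis, log scale) for every kept probe (grey) and the member probes (coloured by gene); the line marks equal values. All 14 member probes lie above the line, where other kept probes lie too, and DLA-DQB1 probe 4 stands at 3.02 against 0.264.

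The remaining DQ probes gave smaller differences below 0, and not all of them were called. The question here is the diet difference while the diets were fed. Over weeks 3, 6 and 9, DLA-DQA1 was -0.25 ± 0.07 by probe 1 and -0.27 ± 0.08 by probe 2 (adjusted p = 0.0200 and 0.0217). DLA-DQB1 probe 2 was -0.30 ± 0.09 (adjusted p = 0.0175), while probes 1 and 3 of the same gene, both at -0.09 ± 0.07, were not called (adjusted p = 0.457 and 0.433). In all, 5 of 14 member probes were called lower and none higher, against 15.8% of all kept probes called in either direction and 8.39% called lower. All 14 values were below 0 (median -0.14, against 0.00 over all kept probes). Probes of 1 gene, and genes of 1 cell type, are not independent of each other, so these counts describe the probes.

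DR and DM were below 0 without a call. HLA-DRB1 gave -0.08 ± 0.05, -0.12 ± 0.06 and -0.10 ± 0.07 by its 3 probes (adjusted p = 0.314, 0.203 and 0.402). DLA-DMA gave -0.16 ± 0.06 (adjusted p = 0.0551), and DLA-DMB -0.06 ± 0.06 and -0.03 ± 0.06 (adjusted p = 0.638 and 0.799). CD80 was -0.29 ± 0.09 by probe 1 (adjusted p = 0.0286) and -0.15 ± 0.10 by probe 2 (adjusted p = 0.382). With week 0 added, the mean over all 4 weeks called 6 probes lower and none higher, against 13.6% of all kept probes called and 8.11% lower. They were both DLA-DQA1 probes (-0.25 ± 0.07 and -0.28 ± 0.07), DLA-DQB1 probe 2 (-0.36 ± 0.08, adjusted p = 0.00236) and probe 4, DLA-DMA (-0.20 ± 0.05, adjusted p = 0.0116) and CD80 probe 1 (-0.27 ± 0.08, adjusted p = 0.0277).

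By week, the members' median diet difference was -0.26 and -0.27 at weeks 0 and 3, then -0.16 at week 6, and 0.04 at week 9. At weeks 0, 3 and 6 all 14 probes were below 0, and at week 9 6 were below and 8 above. At week 3, 2 probes were called, DLA-DQA1 probe 1 at -0.45 ± 0.12 and probe 2 at -0.46 ± 0.13 (adjusted p = 0.0264 and 0.0355), against 6.09% of all kept probes called. At week 6 only DLA-DQB1 probe 4 was called, against 6.6% of all kept probes. At week 9 none was (smallest adjusted p = 0.135, 1 probe at an unadjusted p under 0.05), against 0.524% of all kept probes called and 10.9% at an unadjusted p under 0.05. The diet difference while fed, minus that at week 0, was above 0 for 12 of 14 probes with a median of 0.13. No member passed in that test (smallest adjusted p = 0.410, 2 at an unadjusted p under 0.05), and 0% of all kept probes did, with 9.71% at an unadjusted p under 0.05. A diet difference that began with feeding was therefore not shown for any member. Each week's diet arrays shared 1 slide that held no others, so week and slide cannot be told apart.

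**Figure D3:**
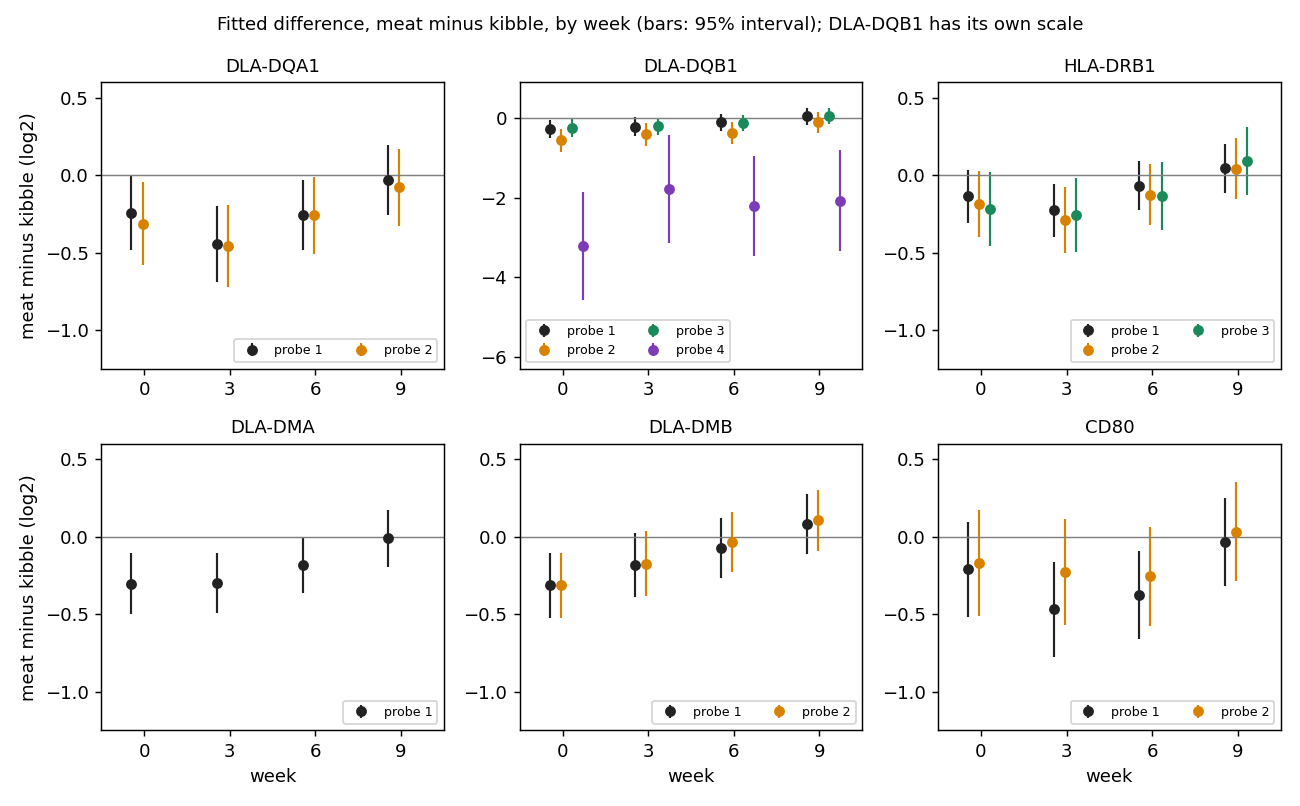
Fitted meat minus kibble difference (log2, y axis) of each member probe at weeks 0, 3, 6 and 9 (x axis), points with 95% intervals, 1 panel a gene; the DLA-DQB1 panel has a wider scale. All 14 values lie below 0 at weeks 0, 3 and 6, and 8 of 14 lie above 0 at week 9.

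The arrays of 1 week did not repeat each other closely, and on 2 of them all 14 probes were lower on meat by a median of over 0.5. On the array meat 3/kibble 3 replicate 2, all 14 probes were below 0, each the lowest of the week's 3 arrays, with a median of -0.79. The other 2 arrays of week 3 had medians of -0.03 and -0.18. On the array kibble 6/meat 6 replicate 1 all 14 were below 0 as well, with a median of -0.58, while the other 3 arrays of week 6 had medians of -0.29, 0.03 and 0.11. The 3 arrays of week 0 had medians of -0.40, -0.38 and -0.17, with 14, 13 and 13 probes below 0. At week 9 the medians were -0.15, -0.05, 0.11 and 0.29.

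Without the array meat 3/kibble 3 replicate 2, 1 member probe stayed called over weeks 3, 6 and 9 and none at week 3. Without the array kibble 6/meat 6 replicate 1, 1 stayed called over these weeks, none at week 6, and 7 of 14 instead of 14 were below 0 at week 6. In both cases the probe still called over weeks 3, 6 and 9 was DLA-DQB1 probe 4 (-1.74, adjusted p = 0.00588, and -1.81, adjusted p = 0.00749). The DLA-DQA1, DLA-DQB1 probe 2 and CD80 calls were lost without either of these arrays, with values that stayed below 0. Without the first and without the second, DLA-DQA1 probe 1 was -0.19 and -0.18 (adjusted p = 0.0812 and 0.106) and probe 2 was -0.23 and -0.18 (adjusted p = 0.0751 and 0.128). DLA-DQB1 probe 2 was -0.21 and -0.20 (adjusted p = 0.0764 and 0.108), and CD80 probe 1 was -0.21 and -0.18 (adjusted p = 0.120 and 0.173). DLA-DQA1 probe 1 shows it in single values: -0.29, -0.23 and -0.93 on the arrays of week 3, and -0.61, 0.15, 0.16 and -0.69 on those of week 6.

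**Figure D4:**
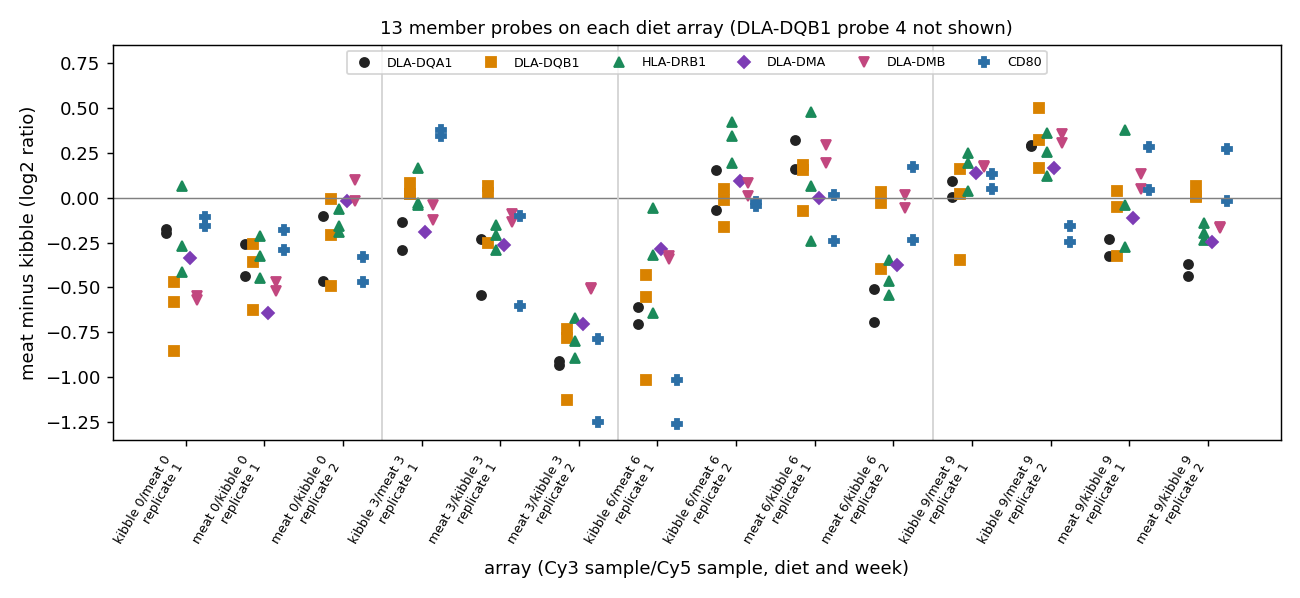
Meat over kibble log2 ratio (y axis) of 13 member probes on each of the 14 diet arrays (x axis, sample in Cy3 before the stroke, grey lines between weeks), 1 point a probe, coloured by gene; DLA-DQB1 probe 4 is left out for its scale. The arrays meat 3/kibble 3 replicate 2 and kibble 6/meat 6 replicate 1 have all points below 0 (medians over 14 probes of -0.79 and -0.58).

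The B cell marker was also low on these arrays, as were some lists of other genes. The monocyte markers were not the lowest of their weeks. MS4A1 (CD20), the only 1 of 14 listed B cell markers measured, was -1.58 on the array meat 3/kibble 3 replicate 2 and -1.74 on the array kibble 6/meat 6 replicate 1, the lowest of their weeks. On the other arrays of weeks 3 and 6 it was 0.23 to 0.87. At week 0 it was -1.09, 1.32 and 0.12 on arrays whose member medians were -0.38, -0.40 and -0.17, so there the B cell marker and the members did not move together. At week 9 it was 0.05, -0.03, 0.37 and 0.73 on arrays whose member medians were -0.15, -0.05, 0.11 and 0.29. The 2 arrays with the higher MS4A1 and member medians had meat in Cy5, and the others had meat in Cy3. Dye and a shared pattern cannot be told apart there. Between arrays of like dye, the order was the same with meat in Cy5 and reversed with meat in Cy3. Over weeks 3, 6 and 9 MS4A1 differed between diets by 0.01 ± 0.19 (adjusted p = 0.979). Its level ran from 6.60 to 10.22 log2 intensity in meat channels and from 8.43 to 10.24 in kibble channels. The 5 of 10 listed monocyte markers that were measured had a mean ratio of -0.04 on the array meat 3/kibble 3 replicate 2 and -0.29 on the array kibble 6/meat 6 replicate 1, the highest and the second highest of their weeks. The 3 measured dendritic cell markers had a mean ratio of 0.16 and -0.14 on these arrays. Both arrays were also the lowest of their weeks for the interferon gamma genes (-0.41 and -0.72). The same held for the other class II pathway genes (-0.38 and -0.67) and the costimulation genes (0.04 and 0.01). Cytotoxic and NK cell markers were -0.92 (lowest of week 3) and -0.78. Platelet markers were -0.79 and -1.93 (lowest of week 6). Neutrophil markers were the highest of both weeks (0.28 and 0.03), and class I genes and T cell markers the lowest of neither. The part of B cell and monocyte numbers in these values was not tested.

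Over weeks 3, 6 and 9, 3 of 5 monocyte markers were lower on meat and none higher (list median -0.60): CYBB, a subunit of the phagocyte oxidase, at -0.69 ± 0.10 (adjusted p = 5.45e-05), the scavenger receptor CD163 at -0.60 ± 0.14 (adjusted p = 0.00494) and TLR4, the receptor for bacterial lipopolysaccharide, at -0.43 ± 0.10 (adjusted p = 0.00374). The mean level of the 5 markers ran from 10.75 to 12.88 log2 intensity in meat channels and from 11.65 to 12.98 in kibble channels. Of 3 measured dendritic cell markers 2 were higher on meat, CD1A6 at 0.69 ± 0.17 (adjusted p = 0.00654) and CD1A8 at 0.18 ± 0.06 (adjusted p = 0.0227). Their mean level ran from 6.68 to 8.99 in meat channels and from 7.33 to 7.93 in kibble channels. All 5 measured platelet markers were lower on meat (list median -0.79), led by CLU, GP1BA, ITGB3 and ITGA2B (-0.79 ± 0.10, -1.31 ± 0.18, -0.74 ± 0.14 and -0.90 ± 0.18). Of 5 neutrophil markers 3 were lower, CAMP, LTF and ELANE (-2.54 ± 0.29, -0.77 ± 0.16 and -0.15 ± 0.04). Of 6 cytotoxic and NK cell markers 4 were lower, CCL5, CX3CR1, PRF1 and FASLG (-0.92 ± 0.15, -0.52 ± 0.10, -0.31 ± 0.10 and -0.27 ± 0.08). The part of these cell types in the members' values was not tested.

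Among 5 measured of 24 listed other genes of the class II pathway, 1 was lower on meat and none higher over weeks 3, 6 and 9 (list median 0.00). It was CTSS, the protease that trims the invariant chain, at -0.39 ± 0.09 (adjusted p = 0.00529). DLA-DRA, the alpha chain of DR, was -0.12 ± 0.06 and was not called (adjusted p = 0.180). Among 6 measured of 12 listed genes of costimulation, 3 were higher on meat and none lower (list median 0.22). They were CD28, the activating receptor of CD80, at 0.25 ± 0.05 (adjusted p = 0.00270), ICOS, its relative, at 0.19 ± 0.04 (adjusted p = 0.00339), and CD40LG, the ligand of CD40, at 0.33 ± 0.09 (adjusted p = 0.0166). CTLA4, the inhibitory receptor of CD80, was 0.40 ± 0.19 and was not called (adjusted p = 0.175). CD86, the other ligand of CD28, was -0.11 ± 0.10 (adjusted p = 0.521) and CD40 was 0.00 ± 0.10 (adjusted p = 0.990).

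For MHC class I, 8 of 18 listed genes were measured, with 1 higher and 1 lower (list median 0.04). PSMB9, a subunit of the immunoproteasome, was 0.16 ± 0.04 (adjusted p = 0.00340) and TAPBP, which tethers class I molecules to the peptide transporter, was -0.18 ± 0.04 (adjusted p = 0.00326). Of 5 measured interferon gamma genes, 1 was higher, the kinase JAK1 at 0.28 ± 0.07 (adjusted p = 0.00874; list median 0.03). Of 3 measured T cell markers, 1 was higher and 1 lower, CD28 and CD8A (0.25 ± 0.05 and -0.45 ± 0.11). These lists hold few measured genes and are given as counts beside the 7.38% of all kept probes called higher and 8.39% called lower.

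From week 0 to week 9, 4 of the 14 member probes were called higher on meat in the fit: 1 of DLA-DQA1, 2 of HLA-DRB1 and that of DLA-DMA. The calls depended on the dye term and on single arrays, as given below. Week 9 minus week 0 was above 0 for all 14 probes on meat (median 0.25, against 0.00 over all kept probes), with 4 called higher and none lower, against 8.27% of all kept probes called and 4.08% higher. The called probes were DLA-DQA1 probe 1 (0.50 ± 0.11, adjusted p = 0.00723), HLA-DRB1 probes 1 and 2 (0.27 ± 0.08 and 0.34 ± 0.10, adjusted p = 0.0281 and 0.0258) and DLA-DMA (0.30 ± 0.09, adjusted p = 0.0317). DLA-DQB1 probe 1 was 0.29 ± 0.10 (adjusted p = 0.0751), and CD80 was 0.05 ± 0.14 and 0.04 ± 0.15 by its probes. On kibble 5 probes were above 0 and 9 below (median -0.10). None was called on kibble (smallest adjusted p = 0.0690, 2 at an unadjusted p under 0.05), where 15.1% of all kept probes were, with 28.6% at an unadjusted p under 0.05.

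DLA-DQA1 probe 1 had the closest arrays of the members for this change on meat (SD 0.09), though not on kibble (SD 0.26). Week 9 over week 0 was 0.44, 0.61, 0.52 and 0.41 on the 4 meat arrays and 0.16, 0.35, 0.04 and 0.64 on the 4 kibble arrays. All 8 were above 0, and the ranges of the diets overlapped. On kibble the fit gave 0.29 ± 0.11 (adjusted p = 0.0721). DLA-DMA gave 0.05, 0.50, 0.00 and 0.22 on the meat arrays and 0.11, 0.15, 0.02 and 0.19 on the kibble arrays, again overlapping.

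HLA-DRB1 probe 1 gave 0.10, 0.34, -0.04 and -0.19 on the meat arrays and 0.34, 0.35, 0.34 and 0.18 on the kibble arrays. Its arrays were thus higher on kibble while the fitted change was larger on meat (0.27 ± 0.08, against 0.09 ± 0.08 on kibble). On every time array of weeks 9 and 0 the later week was in Cy5 for kibble and in Cy3 for meat, so in this comparison dye and diet are joined. The fit takes each probe's dye term from all 30 arrays, and without it 1 member probe was called for meat in place of 4. The array meat 9/meat 0 replicate 2 had the highest member median, 0.40 with 13 of 14 probes above 0, and without it none of the 4 stayed called (14 of 14 still above 0, DLA-DQA1 probe 1 at 0.46, adjusted p = 0.0502). MS4A1 on that array was 1.18, the highest of the 4 meat arrays (0.17 to 1.18, against -0.28 to 0.69 on kibble). Without the array meat 9/meat 0 replicate 3, 1 stayed called.

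**Figure D5:**
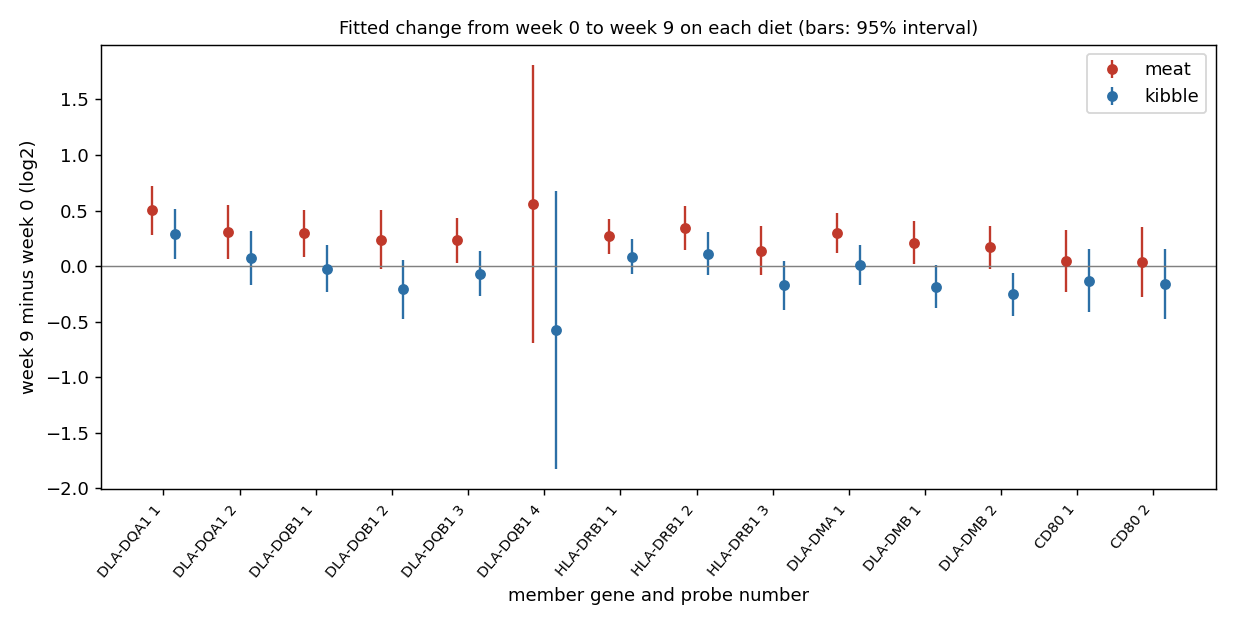
Fitted week 9 minus week 0 change (log2, y axis) of each member probe (x axis) in dogs on meat (red, left) and on kibble (blue, right), points with 95% intervals. All 14 meat values lie above 0 (median 0.25), and 9 of 14 kibble values lie below 0 (median -0.10). Dye and diet are joined on the time arrays of these weeks.

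In the fit, the change from week 0 to 9 was larger on meat than on kibble for all 14 probes, by a median of 0.30. Under the 46 other settings this held for 13 or 14 probes. Dye and diet are joined on the time arrays of these weeks, where HLA-DRB1 probe 1 was higher on kibble, as given above. In the test of that difference no member passed (smallest adjusted p = 0.363, 7 of 14 at an unadjusted p under 0.05), and 0% of all kept probes did, with 8.59% at an unadjusted p under 0.05. DLA-DMB stood farthest apart between the diets after DLA-DQB1 probe 4 and probe 2, at 0.40 ± 0.12 and 0.42 ± 0.12 by its probes. Its week 9 minus week 0 values were 0.21 ± 0.09 and 0.17 ± 0.09 on meat and -0.19 ± 0.09 and -0.25 ± 0.09 on kibble. CTSS was higher at week 9 on both diets, by 0.53 ± 0.14 on meat (adjusted p = 0.0220) and 0.44 ± 0.14 on kibble (adjusted p = 0.0355). Of all kept probes 8.27% and 15.1% were called. CTSS was the only 1 called higher of the 5 measured other class II pathway genes, and on meat 1 was called lower. The medians of that list were 0.12 on meat and -0.24 on kibble.

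Between weeks 3 and 6 no member was called on either diet. On meat 12 of 14 probes were above 0 (median 0.11, smallest adjusted p = 0.239, 2 at an unadjusted p under 0.05), against 2.18% of all kept probes called and 18.5% at an unadjusted p under 0.05. On kibble 6 were above 0 (median -0.01, smallest adjusted p = 0.252, 1 at an unadjusted p under 0.05), against 0.104% called and 17.2% at an unadjusted p under 0.05. The change was not called different between diets for any member (smallest adjusted p = 0.643, 0 at an unadjusted p under 0.05), nor for any kept probe (0% called, 9.07% at an unadjusted p under 0.05).

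The CD80 probes, however, parted from each other in these weeks. To compare probes of 1 gene, each kept probe's log2 ratio minus that of the brightest probe of its gene was tested, for 5741 such pairs of probes on the whole array. CD80 probe 2 minus probe 1 was 0.41 ± 0.06 for week 6 minus week 3 on meat (adjusted p = 0.00194) and 0.53 ± 0.06 on kibble (adjusted p = 1.79e-05). It had the smallest p of all 5741 pairs on each diet, where 2.07% of pairs were called on meat and 0.296% on kibble.

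The arrays of both diets showed it. On meat, probe 2 was 0.25, 0.62, 0.58 and 0.13, and probe 1 was -0.15, -0.20, -0.03 and -0.42. On kibble, probe 2 was 0.06, 0.75, 0.05 and 0.24, and probe 1 was -0.06, 0.20, -0.22 and -0.22. Probe 2 lay above probe 1 on all 4 arrays of each diet, by 0.40 to 0.82 on meat and 0.11 to 0.55 on kibble, although the later week was in Cy3 on meat and in Cy5 on kibble. The arrays thus ran higher on meat, while the fitted difference was larger on kibble (0.53, against 0.41 on meat). Dye and diet are joined on these arrays, so the sizes on the 2 diets are not resolved by them. From week 0 to 9 the probes did not part in this way, with -0.01 ± 0.06 on meat and -0.03 ± 0.06 on kibble (adjusted p = 0.965 and 0.761). The pair's change between weeks 3 and 6 did not pass the test of a difference between diets (-0.12 ± 0.07, adjusted p = 0.758), where 0.0174% of pairs were called. The probes also differed for meat minus kibble over weeks 3, 6 and 9, by 0.14 ± 0.04 (adjusted p = 0.0368), so CD80 was lower on meat by probe 1 more than by probe 2. Which part of the CD80 transcript each probe binds was not analysed here.

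Of the 8 member pairs, 3 were called for the diet difference over weeks 3, 6 and 9, against 5.12% of all pairs. Beside CD80, DLA-DQB1 probe 4 minus probe 1 was -1.93 ± 0.37 (adjusted p = 0.00197), and DLA-DQB1 probe 2 minus probe 1 was -0.21 ± 0.06 (adjusted p = 0.0286). The count was 1 when any single one of these arrays was left out: meat 3/kibble 3 replicate 1, meat 3/kibble 3 replicate 2, meat 6/kibble 6 replicate 2, kibble 9/meat 9 replicate 1 and kibble 9/meat 9 replicate 2. Over all 4 weeks both DLA-DQB1 pairs were called, at -2.18 ± 0.33 and -0.23 ± 0.05 (adjusted p = 0.000172 and 0.00821), against 4.76% of pairs. At week 0 the probe 4 pair was called, at -2.94 ± 0.61 (adjusted p = 0.0328), against 0.174% of pairs. At weeks 3, 6 and 9 no member pair was, against 0.941%, 1.34% and 0.192% of pairs. For week 9 minus week 0 on kibble, HLA-DRB1 probe 3 minus probe 1 was -0.26 ± 0.09 (adjusted p = 0.0459), against 21.5% of pairs, and no member pair was called on meat, against 5.56%. The HLA-DRB1 call was lost in 29 of 38 other settings, with the difference below 0 in all of them. HLA-DRB1 probe 3 was below 0 on all 4 of those kibble arrays (-0.10 to -0.19), where probe 1 was above 0 on all 4. Their difference there, -0.52 to -0.38, was larger in size than the fitted one, and the later week was always in Cy5. On the meat arrays, with the later week in Cy3, the difference was above 0 on 3 of 4 (-0.08 to 0.31). Dye and week therefore cannot be told apart in these single arrays.

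The 4 DLA-DQB1 probes did not give 1 value for the gene. Probes 1 and 3 moved together over the 30 arrays (Pearson r = 0.95, difference SD 0.08, at the 7.82 percentile of all pairs). Probe 2 followed probe 1 less closely (r = 0.77, SD 0.25), and the difference of probe 4 had an SD of 1.96, at the 99.98 percentile. Probe 2 was lower on meat on all 3 arrays of week 0 (-0.86, -0.62 and -0.49). At week 3 it was 0.02, -0.25 and -1.12, at week 6 -1.01, -0.16, 0.18 and -0.40, and at week 9 -0.35, 0.16, 0.04 and 0.00, so its arrays spanned 0 from week 3 on. The DLA-DMB probes were the closest of the members (r = 0.97), followed by DLA-DQB1 probes 1 and 3, HLA-DRB1 probes 1 and 2 (r = 0.90), DLA-DQA1 (r = 0.82), CD80 (r = 0.71) and HLA-DRB1 probes 1 and 3 (r = 0.59). These are descriptions over arrays that share dyes, slides and samples.

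The spread of the members between arrays was above that of most probes. The residual SD of all 14 was over the median of all kept probes (0.160), and it ran from 0.17 for HLA-DRB1 probe 1 to 0.36 for CD80 probe 2, and to 1.45 for DLA-DQB1 probe 4. The smaller differences above were therefore read with less precision than those of a typical probe.

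By the likeness of the 30 log2 ratios over 1085 other named genes, the class II genes resembled each other. DLA-DMA and DLA-DMB were most like each other (r = 0.88), and next like DLA-DRA (0.83 and 0.86) and SLC1A5, a glutamine transporter (0.82 and 0.79). DLA-DQB1 was most like DLA-DRA (0.77), DLA-DMA (0.76) and FZD6, a Wnt receptor (0.75). HLA-DRB1 was most like HIF1A, a regulator of the response to low oxygen (0.76), DLA-DRA (0.74) and DLA-DQA1 (0.74). DLA-DQA1 had r = 0.83 with CX3CR1, the receptor of fractalkine, and 0.79 with DLA-DMA. CD80 was less like these genes. Its closest patterns were MT1E, a metallothionein (0.79), FASLG, a death ligand of cytotoxic cells (0.79), and KLRD1, a receptor of NK cells (0.78). By the brightest probes its r with the 5 class II genes was 0.32 to 0.52, against 0.55 to 0.88 among those genes. It was higher with DLA-DOB, another class II gene (0.59), and between CD80 probe 1 and DLA-DQB1 probe 2 (0.69). The class II pathway gene CTSS had r = 0.80 with DLA-DMA, 0.74 with DLA-DQA1, 0.71 with HLA-DRB1, 0.57 with DLA-DMB and 0.55 with DLA-DQB1. MS4A1 had 0.71 with DLA-DQB1, 0.56 with DLA-DQA1, 0.48 with HLA-DRB1, 0.42 with DLA-DMB and 0.40 with DLA-DMA. The monocyte markers CD163 and CYBB had 0.38 to 0.70 and 0.33 to 0.62 with the 5 class II genes, highest with DLA-DMA.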

How the data were processed

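RNA from PBMC was labelled with Cy3 and Cy5 and hybridised to 30 2-colour Agilent arrays, scanned as 8 slides, per the labels' protocols. The deposited scanner files hold spot and background intensity values for both dyes, per the file headers, from Agilent Feature Extraction (version 10.10.1.1). The authors also deposited a table of log2 ratios per array, made with limma per the submitters' processing notes. Its column medians lay between -0.0063 and 0.0040, and each column correlated with the ratio of Cy5 to Cy3 of its own scanner file (r from 0.83 to 0.99); its exact normalization is not given in the sources used here, and it served as an alternative.

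Median intensities were background corrected (normexp, offset 50) and loess normalized within arrays; control spots and 979 faulty spots were left out, and no spot was saturated. The filter kept 31674 of 43603 probes, those with a signal well over background in 7 or more of 60 channels. limma 3.58.1 in R 4.3.3 fitted log2(Cy5/Cy3) with a term per diet and week and a dye term (23 residual degrees of freedom), two-sided, with Benjamini-Hochberg adjustment over all kept probes, or over 5741 pairs for differences between probes of a gene. Channel levels used Aquantile scaling. The number of arrays limits the precision. Gene symbols came from the RefSeq table through transcript accessions (1355 of 36612 accessions matched), so 1086 genes with kept probes are named, each led by its brightest kept probe.

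All member probes are named; of each list the measured genes called over weeks 3, 6 and 9 are named, up to 4 by smallest p, or the 2 of smallest p where none was called; and for each member the 3 genes of most like pattern, of which 1 is not reported here. DLA-DRA, DLA-DOB, CD86, CTLA4, CD40, MS4A1 and CTSS are given beyond this where a member's value is set beside theirs. CAMP, CD1A6 and DLA-79 are given in the ranking of ratios. All of these were chosen after their values were seen. The members, lists and alternatives were chosen with earlier results of these data known. On simulated ratios with known changes of 0.5 and 1 (log2), the fit called 94 and 98 of 100 changed probes for the diet difference over weeks 3, 6 and 9. It called 87 and 97 of 100 for week 9 minus week 0 on meat, and 79 and 96 for the diet difference at week 3. For the change from week 0 to 9, meat minus kibble, it called 75 and 95. Changes smaller than 0.5 were not simulated, and the simulated noise was independent between arrays. Of 102 pairs of arrays with the same replicate number, 30 deviated together at r above 0.1 (range -0.79 to 0.49). With no pairs of unlike number set beside them, these values cannot show whether the numbers mark a pairing. The numbers were not taken as pairing. Alternatives were other background and scaling choices, dye, slide, replicate and scan terms, array weights, subsets of arrays, filters, the deposited values and each array left out. No probe or transcript sequence was analysed here.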

Additional observations from a re-analysis of the deposited data

Results flagged for a closer look

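In groups of 4 arrays or of 7 or 8 channels, values that lay far from the rest of their group are listed here; by chance about 1 group in 20 gives such a value, and 4 of 84 sets of arrays and 13 of 112 sets of channels did.

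Among the ratios, DLA-DQB1 probe 4 was 0.33 on the array meat 6/kibble 6 replicate 2, where the other 3 arrays of week 6 were -3.77 to -3.46. CD80 probe 2 was -1.26 on the array kibble 6/meat 6 replicate 1, where the other 3 were -0.02 to 0.17. For week 9 minus week 0 on kibble, HLA-DRB1 probe 1 was 0.18 on replicate 4, against 0.34 to 0.35 on the others, and DLA-DMB probe 2 was -0.37 on replicate 3, against -0.16 to -0.13.

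Among the channel levels (log2 intensity), DLA-DQB1 probe 4 stood apart in 4 groups: 13.4 in a meat 3 channel (the others 6.19 to 8.94), 13.8 in a meat 9 channel (6.24 to 9.59), 6.56 in a kibble 0 channel (13.2 to 13.8) and 7.03 in a kibble 6 channel (12.8 to 13.4). The array meat 9/meat 0 replicate 1, which had the most probes well above background, held 6 of the 13. In its meat 9 channel CD80 probe 1 was 7.60 (the others 9.26 to 9.78), HLA-DRB1 probe 2 was 16.1 (16.65 to 16.97), DLA-DMA was 12.13 (12.64 to 13.02) and DLA-DMB probe 1 was 11.8 (12.1 to 12.4). In its meat 0 channel CD80 probe 1 was 7.74 (9.42 to 9.90) and DLA-DQA1 probe 2 was 10.7 (9.54 to 9.92). The kibble 3 channel of the array kibble 3/kibble 6 replicate 2 was high for DLA-DMA at 12.97 (12.52 to 12.69) and DLA-DMB probe 2 at 11.9 (11.2 to 11.4). That of replicate 1 was low for DLA-DQA1 probe 1, at 11.2 (11.5 to 11.6). The cause of these values was not tested.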

How the results depend on the processing

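The fit gave 5 called member probes for meat minus kibble over weeks 3, 6 and 9, 6 over all 4 weeks, 1, 2, 1 and 0 at weeks 0, 3, 6 and 9, and 4 for week 9 minus week 0 on meat and 0 on kibble. The causes of the moves below were not tested. With Feature Extraction's processed signals the counts were 3 (weeks 3, 6 and 9), 0 at weeks 0, 3 and 6, and 2 (week 9 minus week 0 on meat). The deposited values gave 2 on meat and 1 on kibble. Median centring gave 1 over weeks 3, 6 and 9, 1 over all 4 weeks, 0 at weeks 3 and 6 (7 of 14 below 0 at week 6), 0 on meat and 4 on kibble, and turned DLA-DMB probe 1 over weeks 3, 6 and 9 to 0.0303. Scaling between arrays gave 2 over weeks 3, 6 and 9, 0 at weeks 0 and 3, and 1 on meat. Without background correction 1 was called on kibble, and without a dye term 1 at week 3, 1 on meat (CD80 probe 1 there at -0.0099) and 1 on kibble. Slide as a fixed block gave 3 over weeks 3, 6 and 9, 0 at weeks 0, 3 and 6, and 0 on meat. The replicate block gave 0 at week 0 and 1 at week 3, with 0 pairs of probes at week 0 and 0 on kibble, and it moved no other count of member calls by over 1.5 times. Array weights gave 3 over weeks 3, 6 and 9, and a dye term per scan session 0 at weeks 0 and 3. With the arrays of the loop alone, 2 were called at week 0, 0 at week 3 and 1 on meat. With the arrays of the compared groups alone, which leaves fewer arrays, 0 were called at weeks 0, 3 and 6, 0 over weeks 3, 6 and 9, 1 over all 4 weeks, 0 on meat and 2 on kibble, with CD80 probe 1 on meat at -0.11.

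Of probe pairs, 3, 1 and 1 were called over weeks 3, 6 and 9, at week 0 and for week 9 minus week 0 on kibble. The first became 1 under median centring and without a dye term. The second became 0 under median centring, slide as a block, a dye term per scan session, and without the 2 arrays that stood apart in probes above background. The third became 0 under median centring, no background correction, no dye term, no filter and without those 2 arrays, and 3 with a dye term per scan session. At week 6, where 0 was called, 1 was without background correction or a dye term.

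Leaving out each array in turn gave 1 to 6 called probes over weeks 3, 6 and 9, 5 to 8 over all 4 weeks, 0 to 2 at week 0, 0 to 7 at week 3, 0 to 3 at week 6 (7 to 14 below 0), 0 at week 9, 0 to 6 on meat and 0 to 1 on kibble. The 7 at week 3 came without the array meat 6/kibble 6 replicate 1. Called pairs were 1 to 3 over weeks 3, 6 and 9, 0 to 1 at weeks 0, 3, 6 and 9, and 0 to 1 on kibble. The CD80 pair between weeks 3 and 6 stayed called on both diets under all 38 settings run for pairs, and DLA-DQB1 probe 4 over all 4 weeks under all 46. Counts over all kept probes also moved: 4994 over weeks 3, 6 and 9 (lowest 1441), 1929 at week 3 (lowest 0), 2090 at week 6 (lowest 0, highest 3926), 99 at week 0 (0 to 238), 166 at week 9 (0 to 229), 0 for the diet difference while fed minus that at week 0 (325 without the array meat 0/kibble 0 replicate 1, with no member among them), 4301 over all 4 weeks (lowest 1199), 2620 and 4785 for week 9 minus week 0 on meat and on kibble (0 to 4172 and 2570 to 7248), 692 and 33 for week 6 minus week 3 on meat and on kibble (3 to 3013 and 0 to 504).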
